A study of Mus musculus with 20 samples.

Results

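Chemokines are small secreted proteins that guide white blood cells into tissue, and 10 of their genes were followed here in the mouse heart: Ccl2, Ccl6, Ccl7, Ccl8, Ccl9, Ccl12, Cxcl9, Cxcl10, Cxcl12, and Cx3cl1. The members were chosen by symbol, and all 10 were found among the 15956 genes of the count table. The samples were left ventricles of 20 mice, 5 on each of 4 diets. NP stands for normal protein and LP for low protein, HF is the high-fat diet, and HF + LP combines the latter with low protein. All of them were male by the study's methods, and the labels give 18 months as the age of every mouse, whereas the methods give a younger age. The labels name no altered gene and no drug. They also give a body weight without a unit, which ran from 33.3 to 52.3 in NP, 29.9 to 36.9 in LP, 56.1 to 60.9 in HF, and 41.2 to 56.1 in HF + LP. Every HF mouse was heavier than any NP mouse, so weight and diet cannot be told apart in that comparison. RNA was read by a 3′ method that primes on the poly(A) tail, in which a transcript's count does not grow with its length, so levels of different genes can be set side by side. Values are counts scaled to the same library size, called normalized counts.

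Chemokines act through receptors on the cells they attract. CCR2 on monocytes answers to Ccl2, Ccl7, and Ccl12, CCR1 on myeloid cells to Ccl6 and Ccl9, and CCR8 to mouse Ccl8. Cxcl9 and Cxcl10 are induced by interferons and attract T cells and NK cells through CXCR3. Cxcl12 is made constantly by stromal and endothelial cells and acts through CXCR4, while Cx3cl1 is anchored in the membrane and holds CX3CR1-bearing monocytes and macrophages. In the heart, macrophages, fibroblasts, and endothelial cells are known sources of these signals.

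The 6 CC chemokine genes lie on chromosome 11, and their positions are given because neighbouring pairs were compared. On GRCm38 with the GENCODE M21 annotation, Ccl2 lies at chr11:82035571-82037453 and Ccl7 at chr11:82045712-82047525, followed by Ccl12 at chr11:82101845-82103400 and Ccl8 at chr11:82115185-82116799, all on the plus strand. Ccl9 (chr11:83572919-83578636) and Ccl6 (chr11:83587882-83593087) form a pair on the minus strand, 1537 and 1552 kb from the start of Ccl2. Cxcl9 (chr5:92321347-92328079) and Cxcl10 (chr5:92346638-92348889) are neighbours on the minus strand of chromosome 5. Cxcl12 (chr6:117168535-117181367) and Cx3cl1 (chr8:94772009-94782427) lie alone on the plus strand. Cxcl10 lies inside Art3, a gene of the opposite strand with normalized counts of 452 to 1606, and the strand setting of the counting is not given in the sources used here, so a share of Art3 reads in the Cxcl10 count was not tested. The annotation also places Ccl6 over E230016K23Rik and Ccl2 over Gm17268, each on the opposite strand, and a share of their reads in the Ccl6 and Ccl2 counts was likewise not tested.

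Promoter windows of 300 bases, 250 before and 50 from the annotated start, were taken from RefSeq on GRCm38.p6 for 8 of the 10 genes, with Ccl2 and Ccl7 missing. The windows of 3 neighbouring pairs are printed 5′ to 3′ along each gene's own strand because those pairs were compared in the data. Capitals mark every match, on either strand, of 5 motifs: GAAANNGAAA, the core of the interferon-stimulated response element (ISRE), TTCNNNGAA, the gamma-activated site, the kappaB motif, TGANTCA, the AP-1 site, and TATAA, the TATA box. The first pair is Ccl6 (chr11:83593038-83593337) and Ccl9 (chr11:83578587-83578886), the CCR1 ligands.
Ccl6: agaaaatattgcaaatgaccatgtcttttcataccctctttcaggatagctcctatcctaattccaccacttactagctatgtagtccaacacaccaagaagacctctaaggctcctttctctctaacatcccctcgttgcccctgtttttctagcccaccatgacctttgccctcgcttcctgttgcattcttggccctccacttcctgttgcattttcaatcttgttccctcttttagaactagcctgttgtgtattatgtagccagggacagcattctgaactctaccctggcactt
Ccl9: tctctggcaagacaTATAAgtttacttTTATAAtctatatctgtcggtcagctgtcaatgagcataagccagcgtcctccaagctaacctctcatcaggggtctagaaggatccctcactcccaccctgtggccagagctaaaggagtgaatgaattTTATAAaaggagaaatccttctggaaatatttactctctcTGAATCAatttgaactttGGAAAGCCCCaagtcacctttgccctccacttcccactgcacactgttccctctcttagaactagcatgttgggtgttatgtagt
The second pair is Ccl8 (chr11:82114935-82115234) and Ccl12 (chr11:82101595-82101894).
Ccl8: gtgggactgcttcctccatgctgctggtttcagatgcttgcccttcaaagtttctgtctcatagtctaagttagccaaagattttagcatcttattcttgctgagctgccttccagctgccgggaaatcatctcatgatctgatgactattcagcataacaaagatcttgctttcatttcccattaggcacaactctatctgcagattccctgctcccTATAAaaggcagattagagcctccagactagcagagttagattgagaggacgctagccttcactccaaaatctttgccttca
Ccl12: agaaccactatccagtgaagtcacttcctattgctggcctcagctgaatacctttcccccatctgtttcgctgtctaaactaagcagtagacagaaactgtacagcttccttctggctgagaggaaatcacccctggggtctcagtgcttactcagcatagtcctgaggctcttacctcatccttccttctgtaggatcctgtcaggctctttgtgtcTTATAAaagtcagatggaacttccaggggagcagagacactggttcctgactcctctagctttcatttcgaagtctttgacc
The third pair is Cxcl9 (chr5:92328030-92328329) and Cxcl10 (chr5:92348840-92349139), the interferon-induced CXCR3 ligands.
Cxcl9: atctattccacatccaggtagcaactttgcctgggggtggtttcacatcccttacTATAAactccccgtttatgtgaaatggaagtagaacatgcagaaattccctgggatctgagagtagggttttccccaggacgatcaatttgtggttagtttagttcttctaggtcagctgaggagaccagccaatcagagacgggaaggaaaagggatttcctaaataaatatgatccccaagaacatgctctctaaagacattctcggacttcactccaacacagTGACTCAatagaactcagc
Cxcl10: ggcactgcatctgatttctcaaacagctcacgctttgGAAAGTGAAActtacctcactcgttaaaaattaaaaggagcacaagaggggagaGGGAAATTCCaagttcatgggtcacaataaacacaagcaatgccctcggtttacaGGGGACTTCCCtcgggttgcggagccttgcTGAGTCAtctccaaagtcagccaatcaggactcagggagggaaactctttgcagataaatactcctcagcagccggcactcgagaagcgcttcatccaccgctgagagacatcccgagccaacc

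Among the 8 windows, the ISRE core was found only in Cxcl10, at bases -213 to -204 from the start, and 3.44% of all 32851 RefSeq windows hold it. The gamma-activated site was found in none of the 8 and is held by 8.3% of windows, and the absence says only that these exact letters are not there. The kappaB motif was matched in Cxcl10, at -159 to -150 and over -104 to -94, where matches overlap, and in Ccl9 at -35 to -26, against 8.46% of all windows. AP-1 letters stand in Cxcl10 at -74, in Ccl9 at -53, and in Cxcl9 at +32, against 7.81% of windows. TATAA letters were found in 5 of the 8 windows, at -32 in Ccl8, at -31 in Ccl12, at -6 in Cx3cl1, at -195 in Cxcl9, and at -236, -222, and -92 in Ccl9, and 24.9% of windows hold them on some strand. When the 8 windows were aligned locally in all 28 pairs, the 3 highest scores belonged to the 3 neighbouring pairs. Ccl6 and Ccl9 shared 59 of 74 aligned columns (79.7%), Ccl8 and Ccl12 shared 28 of 36 (77.8%) around the TATA letters, and Cxcl9 and Cxcl10 shared 23 of 28 (82.1%). These matches describe the letters and show no binding.

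The levels in NP hearts ran in a clear order at the top and a mixed one below. Cxcl12 was by far the most abundant, at 1724 ± 193 normalized counts (mean ± SD, n = 5), and Ccl6 followed at 284 ± 30.4. Cx3cl1 came next at 143 ± 31.2, and its lowest NP mouse (113) lay just above the highest value of Cxcl9 (112). Ccl8 (82.6 ± 16.5), Ccl9 (80.8 ± 6.12), and Cxcl9 (77.4 ± 29.2) had overlapping ranges. Ccl7 (30.0 ± 14.8), Ccl2 (22.8 ± 4.81), Ccl12 (16.8 ± 3.56), and Cxcl10 (14.0 ± 7.17) also overlapped, and rested on as few as 7 reads in a library.

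**Figure D1:**
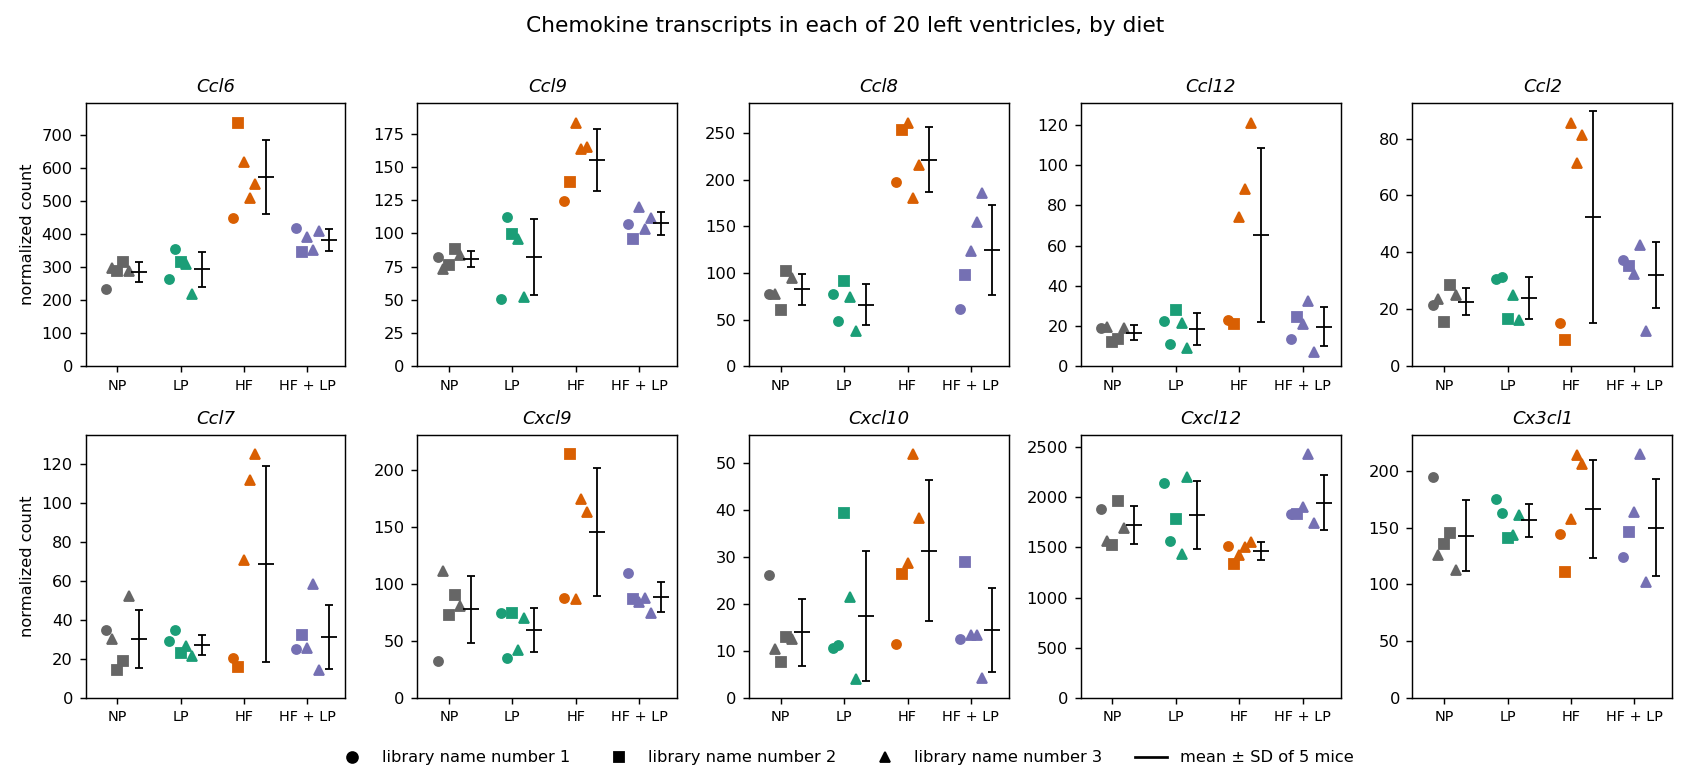
Normalized counts (y axis, from 0) of the 10 chemokines in each mouse by diet, with the marker shape giving the number in the library name and the bar the mean ± SD of 5 mice. All 5 HF mice exceed every NP mouse for Ccl6, Ccl9, and Ccl8, whereas Ccl2 and Ccl7 are high in HF mice 3, 4, and 5 alone.

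Total counts per library ranged from 12559607 to 23331907. Libraries of LP mice 13 and 20 stood apart. LP mouse 20 had 8926 summed normalized counts of 8 T and NK cell markers, against 33.1 to 111 in the other 19 mice, and LP mouse 13 had 2937 of 3 adipocyte markers, where the other mice had 4.27 to 974. Markers of atrial muscle (Myl7, Sln, Myl4) summed to between 53.3 and 65480 over the 20 ventricles, and varied widely within each of the 4 groups. The 5 cardiomyocyte markers were abundant in every library, with a summed level of at least 364200. Reads of mitochondrial genes made up 38.1 to 39.8% of the counts in HF libraries and 41.3 to 47.1% in NP, without overlap, against 35.4 to 44.6% in LP and 38.5 to 47.2% in HF + LP. The part of this share in the differences of HF from NP was not tested. A number between 1 and 3 follows the diet in each library's name without explanation in the labels, and values within each number are given where they bear on a result.

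The CCR1 ligands Ccl6 and Ccl9 were higher in every HF heart than in any NP heart. Ccl6 measured 234, 296, 288, 316, and 287 normalized counts in NP mice 4, 5, 3, 6, and 8, and 448, 737, 619, 509, and 550 in HF mice 1 to 5. Ccl9 measured 82.4, 73.4, 75.9, 88.6, and 83.7 in the NP mice and 125, 138, 183, 164, and 165 in the HF mice. Neither gene's groups overlapped. Ccl6 rose 2.01-fold (log2 fold change 1.01, SE 0.14, adjusted p = 0.000674 by edgeR with Benjamini-Hochberg adjustment), past the threshold used by the study of an adjusted p under 0.01 with a mean normalized count over 50. Ccl9 was 1.92-fold higher (log2 0.94, SE 0.19), but its adjusted p of 0.0152 missed that threshold. It passed in DESeq2, in a fit of the 2 groups alone, and without LP mice 13 and 20 in the fit, with an adjusted p of 0.000163, 0.00513, and 0.00245. Within library name numbers 1, 2, and 3, the mean difference of HF from NP in log2 CPM, counts scaled to library size, was 0.93, 1.28, and 0.93 for Ccl6, and 0.59, 0.74, and 1.1 for Ccl9.

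HF + LP hearts lay between the NP and HF hearts for both genes. Ccl6 measured 417, 346, 390, 351, and 408 normalized counts in HF + LP mice 1 to 5, and Ccl9 measured 107, 96.2, 120, 103, and 111. All 5 HF + LP values of each gene were below the lowest HF mouse and above the highest NP mouse. Over all genes tested, 0.636% had every HF + LP value below HF, and the share with every value above NP was not counted. Compared to HF, the log2 fold change in HF + LP was -0.58 (SE 0.14, unadjusted p = 0.000397, adjusted p = 0.217) for Ccl6, and -0.53 (SE 0.18, adjusted p = 0.602) for Ccl9, so neither passed in edgeR.

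Ccl8, the CC chemokine that acts through CCR8 in the mouse, was the other gene that rose. It measured 77.6, 77.4, 60.5, 102, and 95 normalized counts in NP mice 4, 5, 3, 6, and 8, and 197, 253, 261, 180, and 216 in HF mice 1 to 5. The groups did not overlap, and the increase was 2.67-fold (log2 1.42, SE 0.26, adjusted p = 0.00782 by edgeR). When any one NP or HF mouse was left out, the adjusted p ranged from 0.0107 to 0.0317 and the log2 fold change from 1.32 to 1.51, so the call was lost without any one of the 10 mice. With the library name number as a covariate, the adjusted p was 0.0101. HF + LP mice 1 to 5 measured 61.5, 98.3, 124, 155, and 186, a spread from within the NP range up to the HF range, with mouse 5 above the lowest HF mouse. The log2 fold change of HF + LP from HF was -0.83 (SE 0.25, adjusted p = 0.459).

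The CCR2 ligands Ccl2, Ccl7, and Ccl12 behaved differently from these 3 genes in the HF hearts, where the mice were split. Ccl2 measured 15.3 and 9.23 normalized counts in HF mice 1 and 2, but 85.6, 71.3, and 81.3 in HF mice 3, 4, and 5. NP mice had 21.5, 23.6, 15.4, 28.4, and 24.9, so that 3 HF mice were above all NP mice and the other 2 below all of them. Ccl7 measured 20.3 and 15.8 in HF mice 1 and 2, then 70.7, 112, and 125 in mice 3, 4, and 5, against 34.6, 30.2, 14.3, 18.9, and 52.0 in NP. Ccl12 measured 22.9 and 21.1 in HF mice 1 and 2, then 74.2, 88.0, and 121, against 19.1, 19.7, 12.1, 13.8, and 19.2 in NP. The same 3 HF mice thus held the high values of all 3 genes, and for Ccl12 the other 2 lay just above the highest NP mouse.

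The mean difference of HF from NP was 2.34-fold for Ccl2 (log2 1.22, SE 0.46, adjusted p = 0.223), 2.34-fold for Ccl7 (log2 1.22, SE 0.48, adjusted p = 0.250), and 3.96-fold for Ccl12 (log2 1.99, SE 0.46, adjusted p = 0.0341). None of them passed, and their mean normalized counts of 32.8, 39.2, and 30.1 were under the minimum of 50 as well. HF mice 3, 4, and 5 are the HF libraries whose names carry the number 3, with totals of 17796749 to 20111272, whereas HF mice 1 and 2 carry the numbers 1 and 2 and have totals of 13031879 and 12559607. Within number 3, the mean difference in log2 CPM of HF from NP was 1.63 for Ccl2, 1.29 for Ccl7, and 2.14 for Ccl12 (3 HF and 2 NP mice). Within number 1 it was -0.44, -0.71, and 0.24 (1 mouse each), and within number 2 it was -1.03, -0.05, and 0.63 (1 HF and 2 NP mice). Libraries with number 3 from NP, LP, and HF + LP mice had at most 42.6 normalized counts of Ccl2, 58.2 of Ccl7, and 32.5 of Ccl12, below each HF value of that number. The part of the library number in the split was not tested.

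In HF + LP hearts no CCR2 ligand reached the values of HF mice 3, 4, and 5. Ccl2 measured 37.5, 35.3, 32.3, 42.6, and 12.4 in HF + LP mice 1 to 5, Ccl7 measured 25.0, 32.1, 25.7, 58.2, and 14.4, and Ccl12 measured 13.5, 24.6, 20.9, 32.5, and 7.22. Mouse 4 was the highest and mouse 5 the lowest of the 5 for each gene, and 4 of the 5 Ccl2 values lay above all NP mice. Compared to HF, log2 fold changes were -0.74 (SE 0.44, adjusted p = 1.00) for Ccl2, -1.17 (SE 0.47, adjusted p = 0.817) for Ccl7, and -1.75 (SE 0.45, adjusted p = 0.251) for Ccl12. Within number 3 the differences in log2 CPM were -1.53, -1.75, and -2.29, whereas in number 2 they were 1.73, 0.93, and 0.20, and in number 1 they were 1.19, 0.27, and -0.68 (1 mouse each in both).

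**Figure D2:**
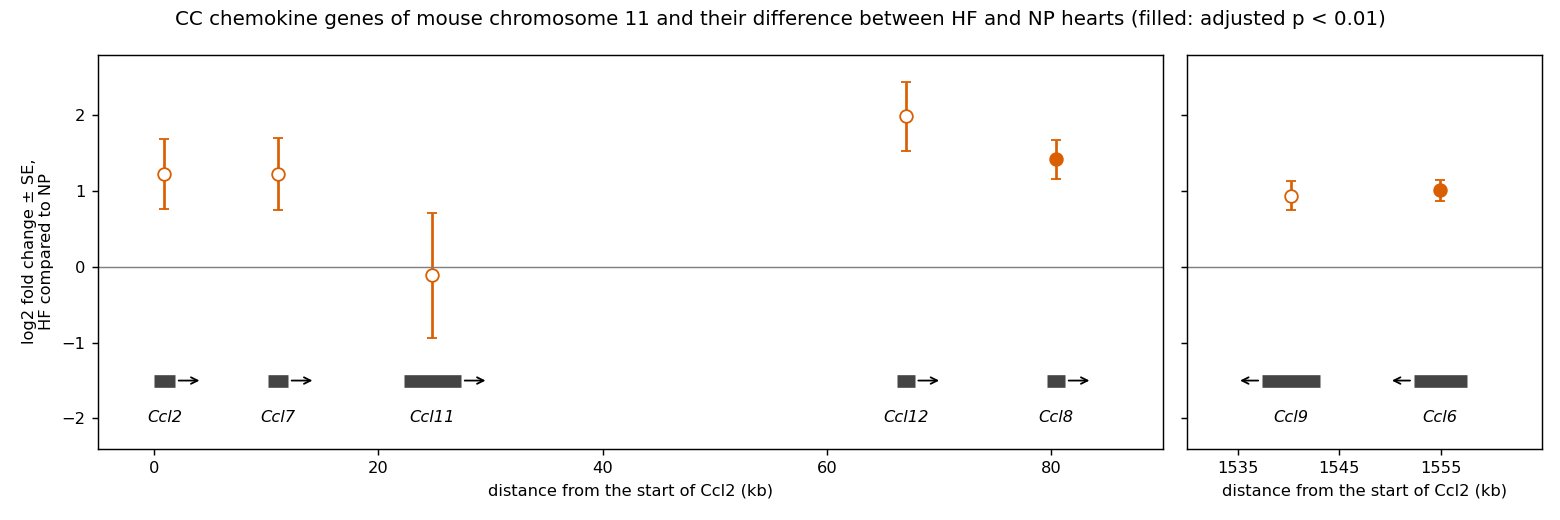
Map of the CC chemokine genes of chromosome 11 (x axis, distance from the start of Ccl2 in kb, with a break between the panels; bars are genes and arrows their strand), with the log2 fold change ± SE of HF compared to NP above each gene. The filled points are Ccl8 and Ccl6, and Ccl11, between Ccl7 and Ccl12, stands at -0.11.

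A neighbour inside the same cluster varied more from mouse to mouse. Ccl11, an eosinophil attractant that is no member and was added for its position after its values were seen, measured 8.90, 6.59, 140, 29.0, and 76.7 in HF mice 1 to 5 and 19.8 to 132 in NP mice. Its log2 fold change was -0.11 with an SE of 0.82 (adjusted p = 0.981), a spread too wide to show a difference of the size seen in its neighbours.

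The interferon-induced CXCR3 ligands were higher on average in HF, with overlap between the groups. Cxcl9 measured 32.2, 112, 72.6, 90.3, and 80.3 normalized counts in NP mice 4, 5, 3, 6, and 8, and 87.7, 214, 86.5, 174, and 163 in HF mice 1 to 5. Cxcl10 measured 26.3, 10.5, 7.70, 12.9, and 12.4 in NP, and 11.4, 26.4, 28.8, 51.9, and 38.4 in HF. HF mice 2, 4, and 5 exceeded all NP mice for both genes, and HF mouse 1 lay within the NP range of both. The log2 fold changes were 0.90 (SE 0.29, adjusted p = 0.143) and 1.18 (SE 0.52, adjusted p = 0.323). HF + LP mice 1 to 5 had 109, 86.5, 83.7, 87.4, and 74.2 of Cxcl9, inside the NP range, and 12.5, 28.9, 13.3, 13.4, and 4.13 of Cxcl10. Compared to HF, these were log2 differences of -0.71 (SE 0.29, adjusted p = 0.822) and -1.13 (SE 0.51, adjusted p = 0.967). Within library name numbers 1, 2, and 3, the difference of HF from NP in log2 CPM was 1.39, 1.38, and 0.50 for Cxcl9, and -1.07, 1.24, and 1.6 for Cxcl10. The same differences of HF + LP from HF were 0.31, -1.28, and -0.71 for Cxcl9, and 0.11, 0.12, and -1.84 for Cxcl10, so that the direction was not the same in every number, apart from Cxcl9 between HF and NP.

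Cxcl12, which keeps leukocytes and progenitors in place through CXCR4, ran the other way. It measured 1513, 1330, 1428, 1508, and 1552 normalized counts in HF mice 1 to 5, and 1884, 1560, 1526, 1959, and 1689 in NP mice 4, 5, 3, 6, and 8. In HF + LP mice 1 to 5 it was 1830, 1831, 1901, 2430, and 1746. Every HF + LP heart exceeded every HF heart, and 4 of 5 HF hearts lay below the lowest NP heart. The log2 fold change was -0.23 (SE 0.12, adjusted p = 0.447) for HF from NP, and 0.41 (SE 0.12, unadjusted p = 0.00331, adjusted p = 0.459) for HF + LP from HF. Both fell short of the threshold.

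Cx3cl1, the membrane-bound ligand, showed no separation by diet. It measured 145, 111, 158, 214, and 206 in HF mice 1 to 5 against 195, 126, 135, 145, and 113 in NP, with 124, 146, 164, 215, and 102 in HF + LP. The log2 fold change was 0.23 (SE 0.20, adjusted p = 0.703) for HF from NP and -0.16 (SE 0.20, adjusted p = 1.00) for HF + LP from HF.

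**Figure D3:**
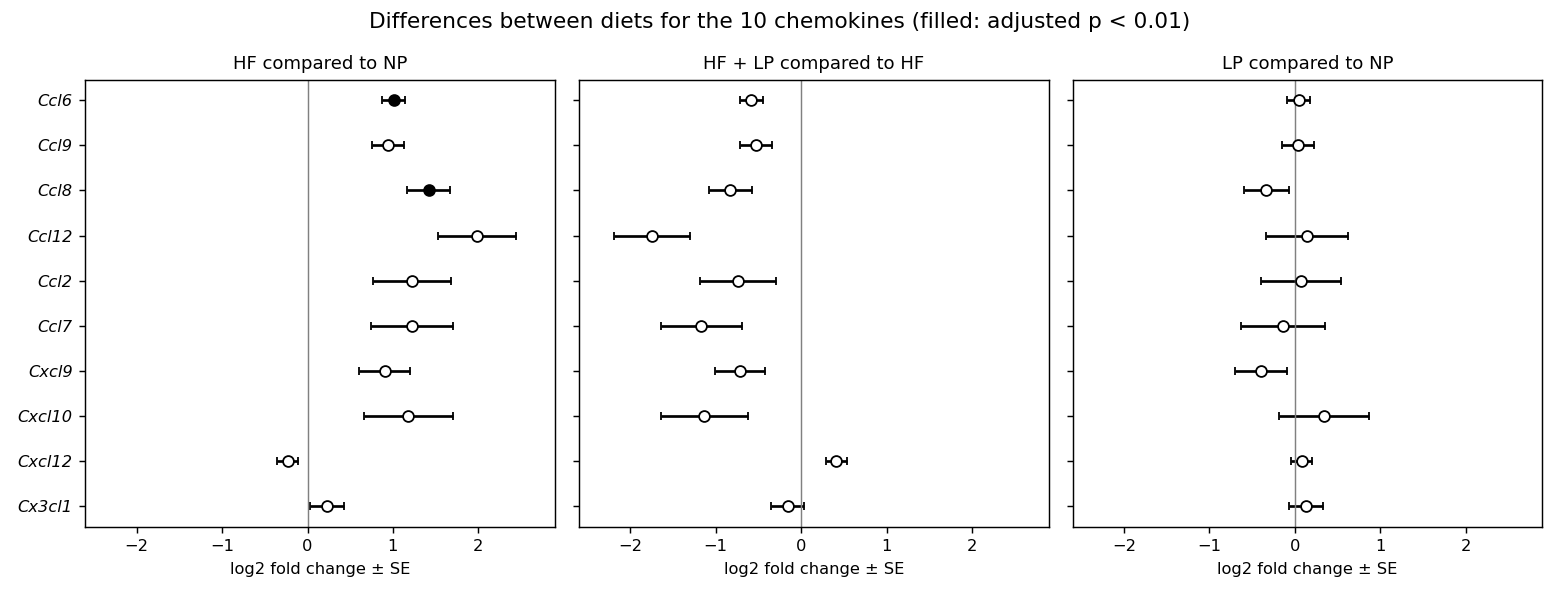
Log2 fold change ± SE (x axis) of each chemokine (y axis) for HF compared to NP, HF + LP compared to HF, and LP compared to NP, with filled points at an adjusted p under 0.01. Ccl6 and Ccl8 are filled in the first panel, all but Cxcl12 lie above 0 there, and all but Cxcl12 lie below 0 in the middle panel, whose comparison uses the same HF mice.

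Counted over the 10 genes, 2 passed the threshold between HF and NP (Ccl6 and Ccl8, both higher in HF), where 0.264% of the 13991 tested genes passed. At an unadjusted p under 0.05, 8 of 10 were higher in HF against 5.17% of all genes, and the groups did not overlap, with HF higher, for 4 of 10 (Ccl6, Ccl8, Ccl9, and Ccl12) against 2.07%. The median log2 fold change was 1.1 over the 10 genes and -0.0011 over all genes tested. When each of the 10 NP and HF mice was left out in turn, Ccl6 alone passed each time.

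Between HF + LP and HF, 0 of 10 passed in edgeR and in DESeq2, and 0% of all genes passed in edgeR. At an unadjusted p under 0.05, 7 of 10 were lower in HF + LP, against 2.43% of all genes, and 1 (Cxcl12) was higher, against 2.41%. The groups did not overlap for Ccl6 and Ccl9, with HF + LP lower, where the share over all genes was 0.636%, and for Cxcl12, with HF + LP higher, where it was 0.543%. The median log2 fold change was -0.73 over the 10 genes and 0.02 over all genes. The 2 comparisons share the HF mice, so a high HF value enters both, with opposite sign. In a bulk sample, fewer cells of a type and less RNA per cell cannot be told apart.

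LP hearts had chemokine values around those of NP hearts. Between LP and NP, 0 of 10 passed in edgeR and in DESeq2, where 0% of all genes passed in edgeR, and 0 of 10 had an unadjusted p under 0.05, where 7.23% of all genes did. Log2 fold changes ranged from -0.39 (Cxcl9, SE 0.30) to 0.34 (Cxcl10, SE 0.53). Ccl6 measured 265, 356, 316, 309, and 219 in LP mice 2, 13, 20, 15, and 5, and Ccl8 measured 77.2, 49.1, 91.1, 74.4, and 38.0. The Ccl6 values spread around the NP values. Those of Ccl8 lay within the NP range or, at 49.1 and 38.0, below it. The highest Cxcl10 of the LP group, 39.5, came from mouse 20, and without mice 13 and 20 its log2 fold change turned from 0.34 to -0.24.

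Set against NP and LP, the HF + LP hearts had higher mean values of the myeloid CC chemokines that did not pass. Between HF + LP and NP, 0 of 10 passed where 0.0286% of genes did, and at an unadjusted p under 0.05 there were 3 of 10 higher, against 3.9%. They were Ccl6 (log2 0.43, SE 0.14, adjusted p = 0.303), Ccl8 (log2 0.59, SE 0.26, adjusted p = 0.501), and Ccl9 (log2 0.41, SE 0.19, adjusted p = 0.533). Between HF + LP and LP, 0 of 10 passed where 0.1% of genes did, and 2 of 10 were higher at an unadjusted p under 0.05, against 6.26%: Ccl6 (log2 0.38, SE 0.14, adjusted p = 0.183) and Ccl8 (log2 0.92, SE 0.26, adjusted p = 0.111). DESeq2 also passed 0 of 10 in both. Within library numbers 1, 2, and 3, the mean log2 CPM of Ccl8 in HF + LP differed from LP by -0.0027, 0.11, and 1.48. From NP it differed by -0.33, 0.31, and 0.82. For Ccl6 the same differences were 0.44, 0.13, and 0.55 from LP, and 0.83, 0.20, and 0.39 from NP. Those of Ccl9 from NP were 0.37, 0.22, and 0.49. Numbers 1 and 2 hold 1 HF + LP mouse each.

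The interaction asks whether added fat changed a gene by a different amount on the low-protein diet than on the normal one. None of the 10 passed in edgeR or in DESeq2, and 0% of all genes passed in edgeR. An unadjusted p under 0.05 with a value below 0 was found for 3 of 10 against 4.31% of genes. These were Ccl6 (log2 -0.63, SE 0.19), Ccl12 (log2 -1.89, SE 0.65), and Ccl9 (log2 -0.57, SE 0.26), with adjusted p of 0.614, 0.630, and 0.689. Without LP mice 13 and 20 the Ccl9 value was -0.24.

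**Figure D4:**
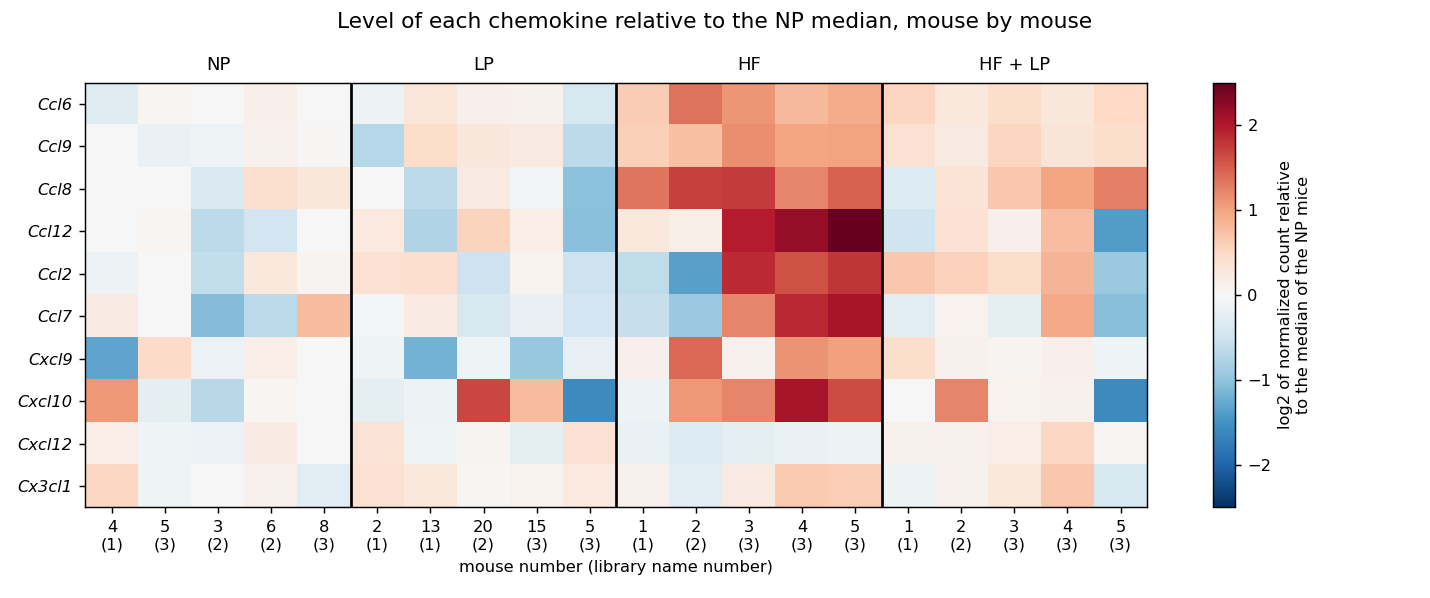
Log2 of each chemokine's normalized count relative to the median of the NP mice (color) in each mouse (columns, by diet, with the library name number in parentheses). Ccl6, Ccl9, and Ccl8 are raised in all 5 HF columns, Ccl12, Ccl2, and Ccl7 most in HF mice 3, 4, and 5, and Cxcl12 is pale throughout.

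The receptors through which these ligands act were mostly low in bulk ventricle, and none passed the threshold. Of 18 chemokine receptors listed, 14 were in the table and 5 had enough counts to test. Cx3cr1, the Cx3cl1 receptor of monocytes and resident macrophages, measured 169, 208, 155, 287, and 208 in HF mice 1 to 5 against 81.2, 90.5, 63.8, 131, and 93.9 in NP. All HF values exceeded all NP values (log2 1.15, SE 0.23, adjusted p = 0.0171).

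Ccr2, the receptor of Ccl2, Ccl7, and Ccl12, measured 78.8, 109, 107, 137, and 133 in HF mice 1 to 5 and 52.5, 101, 72.6, 70.6, and 93.9 in NP (log2 0.54, SE 0.19, adjusted p = 0.185). In HF + LP it stayed at 105 to 153, with a log2 difference from HF of 0.13 (SE 0.19, adjusted p = 1.00). Cx3cr1 in HF + LP was 87.5 to 225, with a log2 difference from HF of -0.33 (SE 0.23). Cxcr4 measured 40.9 to 136 in HF and 60.9 to 82.6 in NP, while LP mouse 20, the mouse with the T cell markers, had 335. Ackr3, the scavenger of Cxcl12, was level between HF and NP (log2 0.05, SE 0.17, adjusted p = 0.953). Ccr1 and Cxcr3 had at most 20.7 and 15.1 normalized counts in any mouse and were not tested, and Ccr8 was not analysed here.

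**Figure D5:**
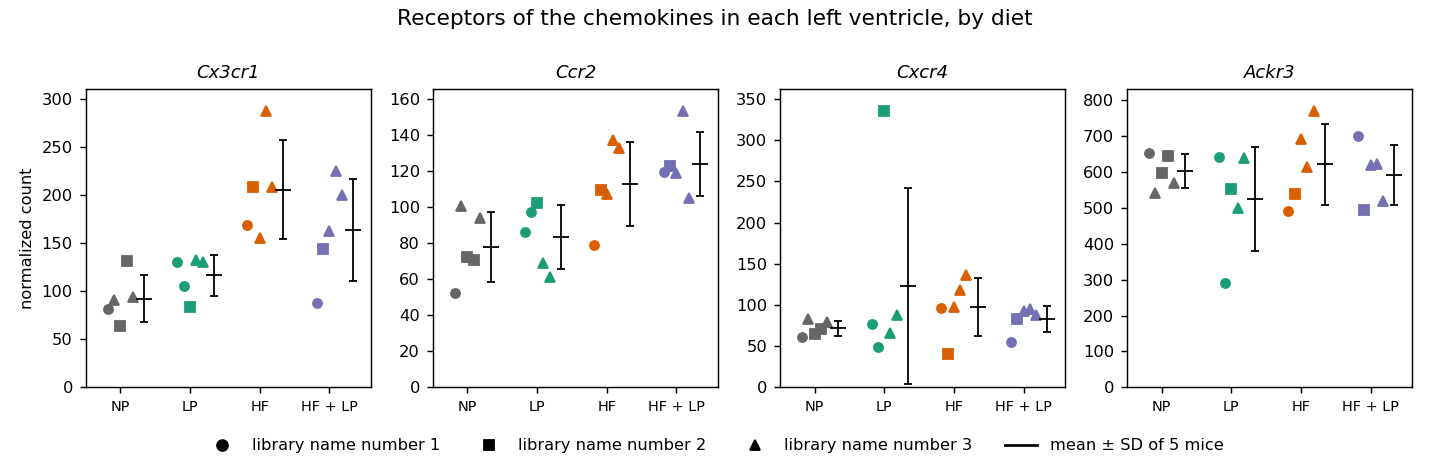
Normalized counts (y axis, from 0) of 4 receptors in each mouse by diet, with marker shape for the library name number and the mean ± SD of 5 mice. Cx3cr1 is higher in all 5 HF mice than in any NP mouse, Ccr2 stays as high in HF + LP as in HF, and the single high Cxcr4 value is LP mouse 20.

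None of the other chemokine ligands passed the threshold in any of the 6 comparisons. Of 29 listed, 18 were in the table and 12 were tested, and 1 was higher in HF at an unadjusted p under 0.05, where 5.17% of all genes were: Cxcl16, a membrane-bound ligand of CXCR6, with a log2 fold change of 0.39 (SE 0.18, adjusted p = 0.361). Ccl5, a T cell attractant, stood at 0.77 (SE 0.40, adjusted p = 0.447), and Pf4, a chemokine of platelets and macrophages, at 0.32 (SE 0.17, adjusted p = 0.461). Their median log2 fold change was 0.08. Between HF + LP and HF 1 of the 12 differed at an unadjusted p under 0.05, higher in HF + LP, against 2.41% of all genes. It was Ppbp, a platelet chemokine (log2 0.84, SE 0.40, adjusted p = 1.00), with 322 normalized counts in HF + LP mouse 3. The other HF + LP mice had 40.3 to 106 and the HF mice 60.6 to 74.8. Medians were 63.0 in HF + LP and 64.6 in HF. In LP, 4 of the 12 were higher than in NP at that level, where 5.02% of all genes were, and the median over the 12 was 0.26. They were Ccl25 (log2 3.1, SE 0.79, adjusted p = 0.387), Cxcl13 (log2 2.65, SE 0.84, adjusted p = 0.476), Ccl5 (log2 1.23, SE 0.40, adjusted p = 0.503), and Ppbp (log2 1.1, SE 0.40, adjusted p = 0.592). Ccl25 stood at 883 normalized counts in LP mouse 20 and at 31.9 to 36.9 in the other LP mice, and Cxcl13 at 171, 63.1, and 182 in LP mice 13, 20, and 15 and at most 7.98 in the other 2. Ppbp measured 82.1 to 162 in LP and 46.5 to 85.8 in NP. For HF + LP and LP, 2 of the 12 were lower in HF + LP, Ccl25 and Cxcl5, against 9.66% of all genes, with a median of -0.26. Among 8 genes for the processing and anchoring of chemokines, 1 was higher in HF at an unadjusted p under 0.05, against 5.17% of all genes. This was Mmp2, a protease that trims Cxcl12 and other chemokines (log2 0.36, SE 0.11, adjusted p = 0.112). Between HF + LP and HF, 1 of the 8 was lower and 1 higher at that level, against 2.43% and 2.41% of all genes. Mmp2 had a log2 difference of HF + LP from HF of -0.31 (SE 0.11). Mmp9 differed by 1.47 (SE 0.45, adjusted p = 0.459) between HF + LP and HF, with 149 and 167 normalized counts in HF + LP mice 4 and 5 and at most 54.2 in the other 3.

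Of 17 genes for interferon and NF-kappaB signaling upstream of Cxcl9 and Cxcl10, 3 were higher in HF at an unadjusted p under 0.05, against 5.17% of all genes. Irf7, the interferon-induced transcription factor, measured 209, 1219, 479, 1463, and 1325 in HF mice 1 to 5 against 110, 514, 175, 169, and 312 in NP (log2 1.88, SE 0.45, adjusted p = 0.0397). Irf9, a subunit of the complex that binds the ISRE, differed by 0.82 (SE 0.21, adjusted p = 0.0502), and Ifnar2, a chain of the type I interferon receptor, by 0.35 (SE 0.11, adjusted p = 0.112). HF mice 2, 4, and 5 were the 3 highest for Irf7, and they were also the 3 HF mice with the highest Cxcl9. The 3 highest Cxcl10 values of the HF group, like the high Ccl2 and Ccl7 values, belonged to mice 3, 4, and 5. Between HF + LP and HF, 4 of the 17 were lower at an unadjusted p under 0.05, against 2.43% of all genes, among them Irf7 (log2 -2.25, SE 0.46, adjusted p = 0.134), Irf9 (log2 -0.94, SE 0.21, adjusted p = 0.178), and Stat2 (log2 -0.84, SE 0.24, adjusted p = 0.360).

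Markers of cells that make or follow chemokines also differed between diets, and their part in the chemokine levels was not tested. The counts of markers higher in HF that follow stand against 5.17% of all genes. All 5 tested monocyte markers were higher in HF than in NP at an unadjusted p under 0.05, and the 6 listed summed to 167 to 247 normalized counts in NP, 238 to 555 in HF, and 221 to 391 in HF + LP. Ms4a6c (log2 1.13, SE 0.23, adjusted p = 0.0196), Ms4a4c (log2 2.10, SE 0.49, adjusted p = 0.0364), and Plac8 (log2 2.31, SE 0.70, adjusted p = 0.107) led that list. Of 8 pan-macrophage markers 6 were higher, with sums of 3514 to 4954 in NP, 4466 to 6539 in HF, and 3447 to 5213 in HF + LP, and Fcgr1 led (log2 1.26, SE 0.25, adjusted p = 0.0147). Of 6 resident macrophage markers 1 was higher, Folr2 (log2 0.67, SE 0.18, adjusted p = 0.0666), with sums of 1616 to 2084 in NP, 1995 to 2860 in HF, and 1289 to 2190 in HF + LP. Lower in HF + LP than in HF at an unadjusted p under 0.05 were 4 of 5 monocyte, 2 of 8 pan-macrophage, and 2 of 6 resident macrophage markers, against the 2.43% of all genes given above.

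Both tested neutrophil markers, S100a8 (log2 1.06, SE 0.41) and S100a9 (log2 1.01, SE 0.38), were higher in HF at an unadjusted p under 0.05. Both were also higher in LP than in NP at that level, against 5.02% of all genes. Neither differed at that level between HF + LP and HF. None of the 6 endothelial or 5 fibroblast markers, of cell types known as sources of Cxcl12, was higher or lower in HF at that level. In HF + LP compared to HF, where Cxcl12 was higher, 1 of 6 endothelial markers (Pecam1, log2 -0.24, SE 0.10, adjusted p = 0.912) and 1 of 5 fibroblast markers (Col1a1, log2 -0.49, SE 0.23, adjusted p = 1.00) were lower at an unadjusted p under 0.05, against 2.43% of all genes. The median log2 fold change was -0.06 over the endothelial list, with 2 of its 6 values above 0, and -0.22 over the fibroblast list. Of 6 mural cell markers 2 were higher at that level, against 2.41% of all genes, Abcc9 (log2 0.43, SE 0.17, adjusted p = 0.798) and Acta2 (log2 0.96, SE 0.35, adjusted p = 0.684), and the list median was 0.08. Against 7.91% of all genes lower in HF at that level, 3 of 5 cardiomyocyte and 3 of 6 mural cell markers were lower, led by Myh6 (log2 -0.70, SE 0.13, adjusted p = 0.0124) and Myh11 (log2 -1.39, SE 0.32, adjusted p = 0.0341). The T and NK cell, B cell, atrial, and adipocyte lists held 0 genes that were higher or lower in HF at an unadjusted p under 0.05, and the erythroid list held 1 that was higher, Alas2 (log2 0.78, SE 0.36). No marker of any list passed the threshold in any of the 6 comparisons.

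How the chemokines varied from mouse to mouse was described within diets, after each diet's mean was subtracted from log2 CPM. Over the 15 mice not on HF, Ccl6 and Ccl9 had a Pearson r of 0.75, Ccl2 and Ccl7 0.68, and Ccl7 and Ccl12 0.63, all of them pairs on chromosome 11, with Ccl11 between Ccl7 and Ccl12. Ccl12 and Cxcl10 had 0.76 and Cxcl12 and Cx3cl1 0.62, on different chromosomes. Ccl8 and Ccl12, adjacent and similar around the start, had 0.34, and Cxcl9 and Cxcl10 had -0.20. Ccl6 and Cxcl12 had -0.64. The mice share library numbers and depth differences, so these values are a description.

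The genes most like each chemokine were sought among 10159 genes with a mean normalized count over 50, over all 20 mice in the same way. Closest to Cxcl9 were Dtx3l, Ifi203, and Rsad2, all induced by interferon, each with an r of 0.90. Closest to Cxcl12 were Tnfaip2 (0.84), Cdadc1 (0.82), and the transcriptional repressor Prdm1 (0.81), and closest to Cx3cl1 were Eif2s3x (0.88), Naa40 (0.85), and Srp14 (0.85). Ccl6 was nearest to the dipeptidase Cndp2 (0.78), Zfp865 (0.75), and pyruvate carboxylase, Pcx (0.73), and Ccl8 to Kifc2 (0.82), the secreted phospholipase Pla2g2d (0.75), and Tmem39a (0.73). Ccl9 was nearest to Myl12b, Bmp10, and Cfp, which encodes properdin, each with an r of 0.84. Bmp10, a growth factor of the atrium, had a Spearman rho of 0.49 with Ccl9, and its normalized counts were 13690, 1566, and 4485 in LP mice 13, 20, and 15 and at most 110 in every other mouse.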

How the data were processed

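Left ventricles of 20 mice were sequenced, 5 per diet. Per the study's methods, the authors isolated RNA with TRIzol, prepared Lexogen QuantSeq 3′ libraries, read 75 bp on a NextSeq 500, and aligned with BlueBee software. The submitters' processing notes name GRCm38 and DESeq2 1.22.2. The counting program and annotation are not given in the sources used here. The authors deposited raw read counts for 15956 genes, whose totals over all libraries start at 60, and symbols were matched by Ensembl identifier for 15917. Totals of 12559607 to 23331907 per library limit precision for the chemokines of under 50 counts. Tissue came from mice in the fed state. Animal numbers name different mice in each group, and where nothing in the labels says how a library number arose it was treated as a possible batch.

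Counts were filtered (filterByExpr by diet, 13991 genes kept), scaled by TMM, and fitted for all 20 libraries in 1 quasi-likelihood model with edgeR 4.0.16 in R 4.3.3. P-values were adjusted by Benjamini-Hochberg over all genes tested. The call followed the study's thresholds, 0.01 for the adjusted p and more than 50 for the mean normalized count. SE came from the F statistic. Log2 CPM used a prior count of 2. All 6 comparisons of diets given in the report used this model, with the interaction of fat and protein among them. The test was tried on simulated counts.

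Alternatives were RLE factors, DESeq2 1.42.0, no filter, no mean minimum, a minimum of 10 counts per library, a threshold of 0.05, the library name number as a covariate, only the 2 groups compared, the animal number as a block, and each mouse left out. A fit without LP mice 13 and 20 was added after seeing the data. Promoters were aligned with Biopython 1.88 (match 2, mismatch -3, gap opening -5, extension -2). The text names the 10 chemokines, their receptors, every called gene of the other 18 of 19 lists, the 3 genes of a list with the smallest p in the comparisons of HF with NP and HF + LP with HF, and the 3 genes most like each chemokine with a mean over 50. Not every gene under this rule is described, and 1 receptor is not reported here. The members and lists were chosen with earlier results of these data known.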

Additional observations from a re-analysis of the deposited data

Results flagged for a closer look

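Dixon's test for a value far from the rest of its group of 5 was applied to the 10 chemokines in the 4 diets, 40 groups in all. It picked out 2 of them, where chance picks about 1 in 20. HF + LP mouse 4 had 2430 normalized counts of Cxcl12, with 1901 in the nearest mouse of its group. NP mouse 4 had 26.3 of Cxcl10, with 12.9 in the nearest. The HF values of Ccl2, Ccl7, and Ccl12, which lie in 2 clusters, are not of the kind this test detects.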

How the results depend on the processing

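Of the 2 genes called between HF and NP (Ccl6 and Ccl8), 1 remained (Ccl6) with the library name number as a covariate, and 1 in each fit that left out an NP or HF mouse (lowest 1, highest 1). DESeq2, an adjusted p under 0.05, the 2 groups alone, and the fit without LP mice 13 and 20 each called 3, adding Ccl9. In every other comparison the count was 0 under each alternative. Over all genes, calls between HF and NP went from 37 to 163 in DESeq2, 157 at an adjusted p under 0.05, 76 without LP mice 13 and 20, and 61 with the 2 groups alone. For HF + LP and LP, 14 became 84, 45, 4, and 0, between HF + LP and NP 4 became 31, 16, 10, and 2, and between HF + LP and HF DESeq2 called 16, none of them among the 10. DESeq2 also called 4 genes between LP and NP and 1 for the interaction. For HF + LP and LP, the library number as a covariate called 5 and the animal number as a block 26, and between HF + LP and NP the minimum of 10 counts called 7 and the block 9. Mean normalized counts over the 20 mice were 32.8 for Ccl2, 39.2 for Ccl7, 30.1 for Ccl12, and 19.3 for Cxcl10, which limits what depth can show for them.

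With the animal number as a replicate block over the 3 numbers that HF and NP share, 0 chemokines and 0 genes were called (6 mice), and Ccl6 had a log2 fold change of 1.02 (adjusted p = 0.174). Same-numbered HF and NP mice correlated at -0.48, 0.13, and -0.36, none best with its own number. For HF + LP and HF, 2 of 5 numbers were over 0.1 and correlated best with their own (0.48 and 0.23), and the other 3 ran from -0.55 to -0.12. For HF + LP and NP the values were -0.28, 0.15, and -0.0022, with 1 best with its own, and for HF + LP and LP -0.018 and 0.38, both best with their own but only 2 pairs. No comparison with 3 or more pairs had every value over 0.1, so the numbers were not taken to pair the mice. Under the block, HF + LP compared to LP gave -0.050 for Ccl2, -0.19 for Ccl7, -0.055 for Ccl12, and -0.29 for Cxcl12, and HF + LP compared to NP gave -0.46 for Cxcl10. No paired analysis was possible for LP and NP because they share 1 number.

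Other reversals concern log2 fold changes that were not called. With the library number as a covariate they were -0.014 for Ccl2 (LP compared to NP), -0.080 for Ccl12 (HF + LP compared to LP), and -0.051 for Ccl7 (HF + LP compared to NP). Without LP mice 13 and 20, LP compared to NP gave -0.11 for Ccl6, -0.29 for Ccl9, and -0.24 for Cxcl10, and HF + LP compared to LP gave 0.28 for Cxcl10 and -0.0019 for Cxcl12. Leaving out 1 mouse, LP compared to NP ranged from -0.070 to 0.19 for Ccl2, -0.044 to 0.13 for Ccl6, -0.32 to 0.15 for Ccl7, -0.12 to 0.16 for Ccl9, -0.089 to 0.31 for Ccl12, and -0.25 to 0.69 for Cxcl10. HF + LP compared to LP ranged from -0.15 to 0.38 for Ccl7, -0.15 to 0.32 for Ccl12, -0.70 to 0.30 for Cxcl10, and -0.22 to 0.050 for Cx3cl1. HF + LP compared to NP ranged from -0.30 to 0.35 for Ccl7, -0.0094 to 0.45 for Ccl12, -0.0052 to 0.35 for Cxcl9, -0.36 to 0.39 for Cxcl10, and -0.092 to 0.21 for Cx3cl1. The cause was not tested. In these alternative fits, no direction reversed between HF and NP or between HF + LP and HF. Within single library name numbers some directions did reverse, as given above for Ccl2, Ccl7, and Cxcl10.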
